A study of Macaca mulatta with 9 samples.

Results

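CD14, CD68, CD163, MRC1, SLC11A1, MS4A4A, MS4A6A, MS4A7, CD84 and LST1 are 10 genes that mark the surface and the lysosomes of macrophages and monocytes. Their probes were taken by name from a table of 767 probes, so the 10 genes were the same in every sample and all 10 were measured. The table held probe counts from the nCounter Human Organ Transplant Panel, in which fluorescent barcodes hybridised to RNA are counted one by one with no amplification step. RNA was extracted from formalin-fixed, paraffin-embedded kidney biopsies of pig kidneys carried by rhesus macaques, with all 9 samples labelled male. The samples formed 3 groups of 3, whose labels join the donor pig line (1KO.1TG or 3KO.7TG), a time class and a letter code. One group is labelled 1KO.1TG early R, another 3KO.7TG early bx, and the remaining group is labelled 3KO.7TG late R. They are called 1KO.1TG grafts, early 3KO.7TG grafts and late 3KO.7TG grafts here, since no other group shares both line and time. The labels name none of the knocked-out or added genes of either donor line, give no age, day or drug treatment, and do not say what R and bx stand for. The donor line and the code R or bx therefore cannot be told apart between the early groups, nor can time and code between the 3KO.7TG groups. Donor line and time cannot be told apart between the groups coded R. Whether the samples of a group were taken from different animals is not stated, and p-values hence cover the spread among these samples alone, some of which may be technical.

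Macrophages are phagocytes that take up dead cells, debris and antibody-coated particles and break them down in lysosomes. In a transplanted kidney they can arise from recipient monocytes that enter the graft or from macrophages that came with the donor organ. In human and mouse tissue the 10 genes cover several of their functions: sensing of bacterial products, scavenging, lysosomal breakdown, membrane organisation and signalling to other leukocytes. The probes were designed on human sequence. Which of them bind macaque or pig transcripts is not stated in the sources used here, and each value is the signal of a probe and not of a species. All 10 symbols had an entry in the macaque annotation (RefSeq, assembly T2T-MMU8v2.0), where MS4A7, MS4A4A and MS4A6A lie close together on chromosome 14.

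Levels are given in counts-per-million (CPM), with each library's size scaled by the trimmed-mean method, which corrects for a few very abundant probes. Total counts were between 657340 and 1620151 in 8 libraries and 21725 in replicate 3 of the 1KO.1TG grafts, which is termed the low-yield library. Its scaling factor was 2.71, against 0.76 to 1.00 in the other 8, which lowers its CPM relative to theirs. Probes for viral genes, a measure of background, gave 1 to 17 counts throughout. In the low-yield library the 10 genes gave 4 to 26 counts, and 6 of them lay at or below 17. In the other 8 libraries the lowest count of any of the 10 was 154, SLC11A1 apart, whose lowest was 17. Fold changes are therefore given with all 9 libraries and with the low-yield one left out (8), and ranges and correlations are over those 8. CD14, CD68, CD163 and MS4A7, the measured genes of the list used to check for monocytes and macrophages, summed to 6722 and 14195 CPM in 1KO.1TG grafts, 4281 to 5673 in early 3KO.7TG grafts and 5996 to 12847 in late 3KO.7TG grafts. The panel table used here held no probe named CSF1R, AIF1 or SIRPA. In bulk tissue, fewer cells of a type and less RNA per cell cannot be told apart.

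**Figure D1:**
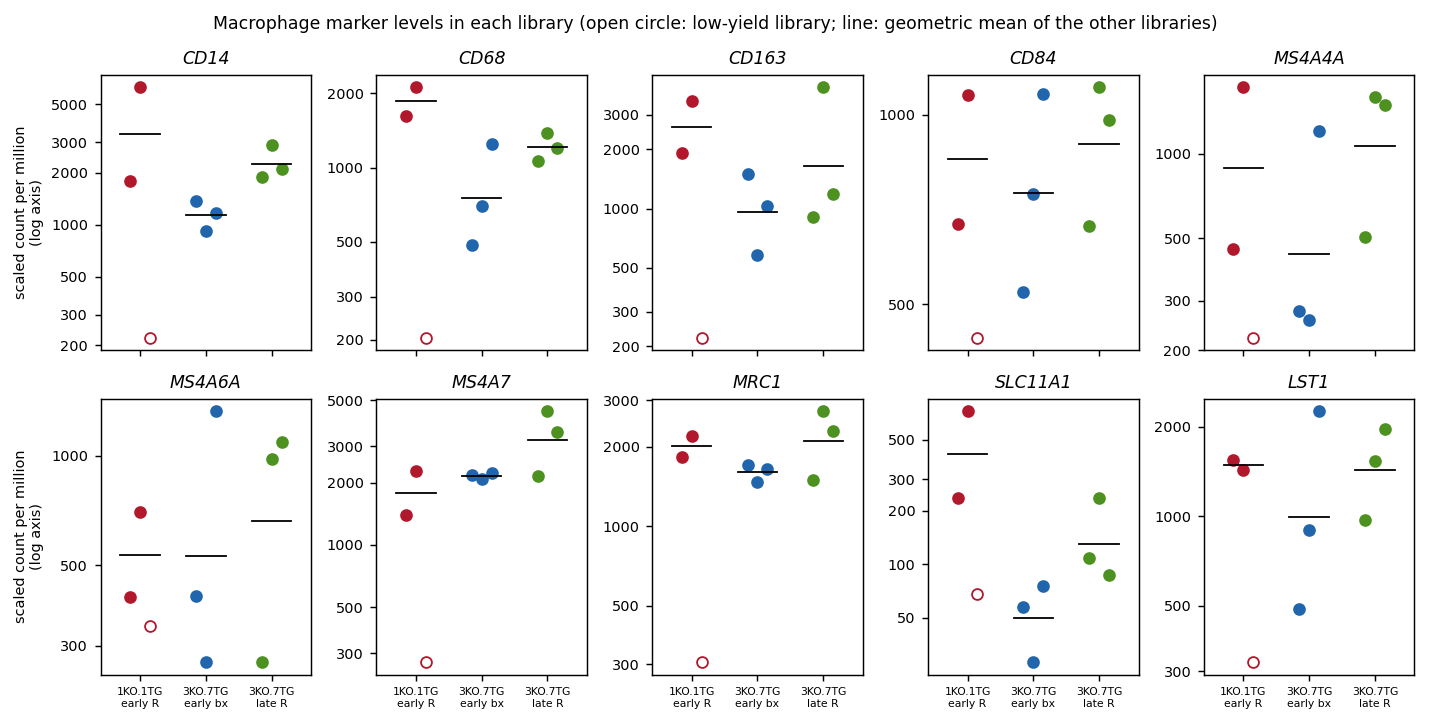
Level of each of the 10 genes in each library, in CPM on log axes that differ between panels. Filled points are libraries, open circles the low-yield library and lines the geometric mean of the other libraries of a group. In these scaled values, with a scaling factor of 2.71, the low-yield library is the lowest of its group for every gene. SLC11A1 spans the widest range as a ratio, from 28.2 to 723 CPM in the other 8.

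CD14 is the surface receptor that hands bacterial lipopolysaccharide to its signalling receptor and is abundant on monocytes. Its level was 1792 and 6284 CPM in 1KO.1TG grafts and 221 in the low-yield library of that group. In early 3KO.7TG grafts it was 1369, 914 and 1174 CPM, and in late 3KO.7TG grafts 1880, 2898 and 2109. All 3 late libraries lay above all 3 of early 3KO.7TG grafts, and so did both 1KO.1TG libraries once the low-yield one was left out. With all 9 libraries the log2 fold change of 1KO.1TG grafts against early 3KO.7TG grafts was −0.15 ± 0.94 (SE, limma adjusted p = 0.990). Without the low-yield library it was 1.63 ± 0.52 (limma adjusted p = 0.146), so the sign turned with that library. It turned as well under other processing with the low-yield library kept, in all in 9 of 20 alternative settings. For late 3KO.7TG grafts against early 3KO.7TG grafts the log2 fold change was 0.99 ± 1.00 with all 9 libraries and 1.02 ± 0.47 without the low-yield one (limma adjusted p = 0.990 and 0.911). This difference did not pass in either fit.

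CD163 takes up haemoglobin bound to haptoglobin, and MRC1, the mannose receptor also called CD206, takes up mannose-bearing glycoproteins. CD163 measured 1914 and 3518 CPM in 1KO.1TG grafts, with 221 in the low-yield library. It measured 1493, 581 and 1026 CPM in early 3KO.7TG grafts and 909, 4138 and 1187 in late 3KO.7TG grafts. Its highest level thus came from a single late library, and the other late libraries lay within the range of early 3KO.7TG grafts. The log2 fold change of 1KO.1TG grafts against early 3KO.7TG grafts was 0.012 ± 0.92 with all 9 libraries and 1.50 ± 0.66 with 8 (limma adjusted p = 0.995 and 0.244). MRC1 varied least of the 10 outside the low-yield library. It measured 1827 and 2200 CPM in 1KO.1TG grafts with 306 in the low-yield library, 1709, 1467 and 1640 in early 3KO.7TG grafts and 1496, 2724 and 2299 in late 3KO.7TG grafts. Over the 8 libraries the highest MRC1 level was 1.86-fold the lowest, against 7.12-fold for CD163 and a median of 3.83-fold over all 767 probes. Between the early groups its log2 fold change was −0.73 ± 0.71 with all 9 libraries (limma adjusted p = 0.753). With 8 it was 0.39 ± 0.38, with a 95% interval of −0.46 to 1.24 (limma adjusted p = 0.626), so the sign turned with the low-yield library.

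CD68 is a glycoprotein of the lysosomal membrane and the usual macrophage stain in kidney pathology. It measured 1620 and 2119 CPM in 1KO.1TG grafts and 204 in the low-yield library. In early 3KO.7TG grafts it measured 484, 700 and 1249 CPM, and in late 3KO.7TG grafts 1061, 1377 and 1201. Without the low-yield library both 1KO.1TG libraries lay above all 6 libraries of the 3KO.7TG line. The log2 fold change against early 3KO.7TG grafts was 0.22 ± 0.76 with all 9 libraries and 1.37 ± 0.46 with 8 (limma adjusted p = 0.990 and 0.162), and neither passed. Against late 3KO.7TG grafts it was −0.49 ± 0.80 and 0.66 ± 0.46 (limma adjusted p = 0.880 and 0.715).

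SLC11A1, also called NRAMP1, pumps iron and manganese out of the phagosome, and in humans it is expressed in neutrophils as well as in macrophages. Its probe gave the lowest counts of the 10 in each library but 1KO.1TG replicate 2, where MS4A6A was lower, and it differed most between libraries. It measured 236 and 723 CPM in 1KO.1TG grafts (246 and 812 counts), and the 4 counts of the low-yield library, which is no more than background, stand for 67.9 CPM. It measured 57.2, 28.2 and 75.7 CPM in early 3KO.7TG grafts (39, 17 and 85 counts) and 109, 236 and 86.6 CPM in late 3KO.7TG grafts (77, 357 and 114 counts). Every late library lay above every library of early 3KO.7TG grafts, and without the low-yield library both 1KO.1TG libraries lay above all others, although replicate 1 of the 1KO.1TG grafts and replicate 2 of late 3KO.7TG grafts were both close to 236 CPM. Between the early groups the log2 fold change was 2.64 ± 0.75 with all 9 libraries, the smallest p of the 10 genes (limma adjusted p = 0.181). With 8 libraries it was 3.08 ± 0.66, or 8.43-fold, with a 95% interval of 1.59 to 4.56 (limma adjusted p = 0.051), just short of the threshold of 0.05.

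The SLC11A1 call between the early groups turned on single libraries. With the low-yield library and replicate 1 of the 1KO.1TG grafts both left out, its log2 fold change was 3.88 ± 0.71 and passed (limma adjusted p = 0.010), with 1 library in the group that is assumed to vary like the others. It passed as well when early 3KO.7TG replicate 3 was left out with the low-yield library (3.41 ± 0.79, limma adjusted p = 0.048) and when late 3KO.7TG replicate 2 was (3.07 ± 0.61, limma adjusted p = 0.045). In the first of these fits CD14 passed too, at 2.54 ± 0.52 (limma adjusted p = 0.015), and in the second CD68 passed, at 1.75 ± 0.37 (limma adjusted p = 0.044). With replicate 2 of the 1KO.1TG grafts left out instead, the SLC11A1 value was 2.25 and the CD14 value 0.72, and none of the 10 passed. Neutrophil markers moved with SLC11A1. The 9 measured neutrophil genes summed to 7060 and 54827 CPM in 1KO.1TG grafts, 1242 to 3889 in early 3KO.7TG grafts and 5187 to 14102 in late 3KO.7TG grafts, the highest sum being in the library with the highest SLC11A1. At most 2 of the 9 lay at or below 17 counts in any of these libraries. In the low-yield library all 9 did, and their sum there, 1613 CPM, is no more than background. Between the early groups with 8 libraries limma called 3 of the 9 higher in 1KO.1TG grafts, against 1.83% of probes in either direction. Their median log2 fold change was 2.55 in that fit. With all 9 libraries it called 0 of 9 (0.391% of probes), while 7 had an unadjusted p under 0.05 (13.2% of probes). The FCGR3A/B probe is among the 9 and also among the other monocyte and macrophage genes described below. The part of neutrophils in the SLC11A1 values was not tested.

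MS4A4A, MS4A6A and MS4A7 encode membrane proteins with several membrane-spanning segments, relatives of the B cell antigen CD20, and are expressed in human monocytes and macrophages. Across the 8 libraries MS4A4A and MS4A6A had a Pearson r of 0.85, against 0.61 and 0.58 with MS4A7, while by rank the order was reversed (rho of 0.67 against 0.81 and 0.76). MS4A4A measured 458 and 1723 CPM in 1KO.1TG grafts with 221 in the low-yield library, 276, 256 and 1202 in early 3KO.7TG grafts and 505, 1591 and 1491 in late 3KO.7TG grafts. MS4A6A measured 408 and 699 CPM with 340 in the low-yield library, then 411, 270 and 1328, and then 271, 983 and 1089 in the same order of groups. In both genes 1 early 3KO.7TG library, replicate 3, stood well above the other libraries of its group, and the groups overlapped in every comparison. MS4A4A had a log2 fold change of 1.32 ± 0.80 with all 9 libraries and 1.27 ± 0.74 with 8 for late 3KO.7TG grafts against early 3KO.7TG grafts (limma adjusted p = 0.990 and 0.911), the first being the largest of the 10 in that fit. MS4A6A was at 0.32 ± 0.69 and 0.34 ± 0.68 in the same comparison (limma adjusted p = 0.990 and 0.946).

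MS4A7 was level in the libraries of early 3KO.7TG grafts, at 2177, 2086 and 2224 CPM, and measured 2146, 4435 and 3513 CPM in late 3KO.7TG grafts. It measured 1396 and 2274 CPM in 1KO.1TG grafts, and 272 in the low-yield library. It was the only one of the 10 with a log2 fold change below 0 between the early groups in both fits, −1.27 ± 0.73 with all 9 libraries and −0.21 ± 0.42 with 8 (limma adjusted p = 0.506 and 0.808), the second value lying above 0 when scaled on pig reference probes, which moved the median of all probes to 0.79. Against late 3KO.7TG grafts the values were −1.85 ± 0.74 and −0.82 ± 0.42 (limma adjusted p = 0.727 and 0.567). None of these passed. As folds they were 2.41 and 3.60 lower with the low-yield library and 1.16 and 1.76 lower without it.

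CD84 is a receptor of the SLAM family, found on macrophages, B cells and platelets, and LST1 is a small leukocyte protein encoded in the major histocompatibility complex. CD84 measured 670 and 1077 CPM in 1KO.1TG grafts with 442 in the low-yield library, 522, 748 and 1079 in early 3KO.7TG grafts and 666, 1108 and 981 in late 3KO.7TG grafts. The groups covered almost the same range outside the low-yield library. Between the early groups the log2 fold change was −0.07 ± 0.51 with all 9 libraries (limma adjusted p = 0.990), and with 8 the 95% interval of the log2 difference between the early groups ran from −0.75 to 1.25 around 0.25 (limma adjusted p = 0.796). LST1 measured 1542 and 1431 CPM in 1KO.1TG grafts with 323 in the low-yield library, 487, 898 and 2259 in early 3KO.7TG grafts and 970, 1539 and 1969 in late 3KO.7TG grafts. Its highest and lowest levels among the 8 libraries both lay in early 3KO.7TG grafts, so the spread within that group was as wide as the whole range. The log2 fold change between the early groups was −0.15 ± 0.71 with all 9 libraries and 0.65 ± 0.61 with 8 (limma adjusted p = 0.990 and 0.617).

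The first comparison, 1KO.1TG grafts against early 3KO.7TG grafts, set the donor lines side by side in early grafts. None of the 10 genes passed an adjusted p of 0.05 with limma, where 0.391% of all probes did, and 1 of 10, SLC11A1, had an unadjusted p under 0.05 against 13.2% of probes. With all 9 libraries the median log2 fold change of the 10 genes was −0.049, beside −0.071 over all probes, and 4 of 10 lay above 0 against 46.5% of probes. For none of the 10 did the groups lie apart with the 1KO.1TG grafts higher (6.39% of probes). With 8 libraries the median was 0.86, beside a median of all probes within 0.01 of 0, and 9 of 10 lay above 0 against 49.9% of probes. In that fit again 0 of 10 passed (1.83% of probes), while CD14, CD68, CD163 and SLC11A1 had an unadjusted p under 0.05 (20.1% of probes). The groups did not overlap for 5 of 10 genes, CD14, CD68, CD163, MRC1 and SLC11A1, all higher in 1KO.1TG grafts, against 18.1% of probes. The sign and size of the list's median thus changed with the low-yield library, in which most of these genes were at background. With 8 libraries the median also moved when 1 more was left out, to 0.48 without 1KO.1TG replicate 2 (7 of 10 above 0), 0.50 without early 3KO.7TG replicate 1 and 1.40 without early 3KO.7TG replicate 3.

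**Figure D2:**
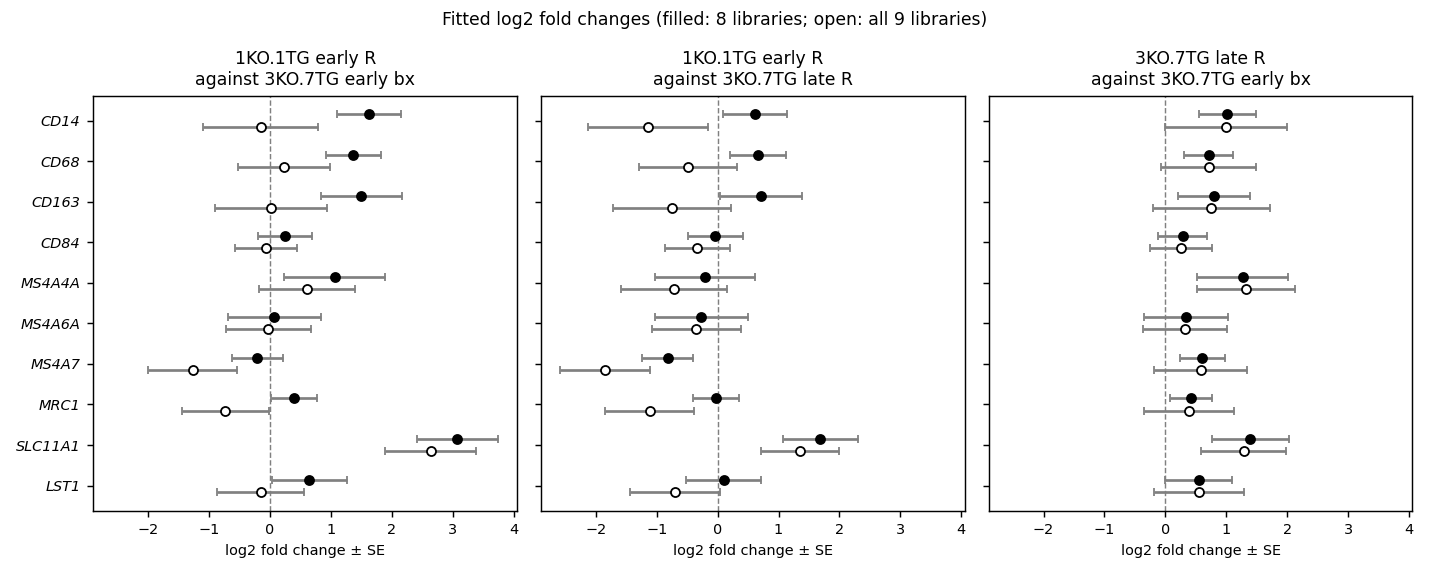
Log2 fold change of each of the 10 genes in each comparison, from all 9 libraries and from 8, the low-yield one left out. Bars are ± SE of the limma fit and not 95% intervals. None passed an adjusted p of 0.05, and in late 3KO.7TG grafts against early 3KO.7TG grafts all 10 values lie above 0 in both fits.

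The second comparison, 1KO.1TG grafts against late 3KO.7TG grafts, uses the same 1KO.1TG libraries and so is not independent of the first. Again 0 of 10 passed with limma (0.391% of probes with all 9 libraries, 0.522% with 8), and 1 of 10 had an unadjusted p under 0.05 in each fit (6.65% and 8.87% of probes), MS4A7 in the first and SLC11A1 in the second. With all 9 libraries only 1 of 10 lay above 0, against 47.3% of probes, namely SLC11A1 at 1.35 ± 0.64 (limma adjusted p = 0.729). The median was −0.71 beside −0.058 over all probes, and 0 of 10 genes lay apart with the 1KO.1TG grafts higher (4.3% of probes). With 8 libraries the median was 0.036 beside 0.052, and 5 of 10 lay above 0 against 53.3% of probes. That median took either sign when 1 more library was left out, from −0.26 without late 3KO.7TG replicate 1 to 0.54 without 1KO.1TG replicate 1 (4 and 9 of 10 above 0). The groups then did not overlap for CD68 and SLC11A1, both higher in 1KO.1TG grafts, 2 of 10 genes against 11.7% of probes. SLC11A1 was at 1.68 ± 0.62 in that fit (limma adjusted p = 0.527).

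The third comparison, late 3KO.7TG grafts against early 3KO.7TG grafts, contrasts late with early grafts of the 3KO.7TG line. It involves the low-yield library only through steps shared by all libraries: the scaling, the weights of the fit and the estimate of spread. All 10 genes had a log2 fold change above 0 in both fits, with a median of 0.65 with all 9 libraries and 0.66 with 8, beside −0.016 and 0.024 over all probes. Above 0 lay 49.2% and 51.0% of probes. The median from all 9 libraries was 0.42 without late 3KO.7TG replicate 2, 0.98 without early 3KO.7TG replicate 3 and 0.99 without late 3KO.7TG replicate 1. With 8 it ran from 0.44 to 1.04 on leaving out late 3KO.7TG replicate 2 or early 3KO.7TG replicate 3, and 9 of 10 lay above 0 without early 3KO.7TG replicate 1 or 2 or late 3KO.7TG replicate 3. With scaling on macaque reference probes CD84 turned to −0.025, and MS4A6A turned below 0 without early 3KO.7TG replicate 2, to −0.17, and without late 3KO.7TG replicate 3, to −0.0073. None of the 10 passed, and limma called 0 of 767 probes, a share of 0%, while 0 of 10 genes had an unadjusted p under 0.05 in either fit (1.69% and 3.52% of probes). The groups did not overlap for CD14 and SLC11A1, 2 of 10 genes against 6.39% of probes, both higher in late grafts. The 6 endothelial markers measured summed to 647 to 1113 CPM in early and 1108 to 1793 CPM in late 3KO.7TG grafts, with up to 3 of 6 at or below 17 counts in a library of either group. Their median log2 fold change was 0.77 and 0.76, with 5 of 6 above 0 in both fits. The neutrophil markers had a median of 1.23 in both fits, with 7 of 9 above 0. T cell markers had medians of 0.41 and 0.46, with 8 and 9 of 12 above 0. Of natural killer cell markers 0 of 10 lay above 0 in either fit, and of dendritic cell markers 0 of 4. The part of these cell types in the values of the 10 genes was not tested. The largest values were those of MS4A4A and SLC11A1, the latter at 1.28 ± 0.70 and 1.39 ± 0.63 (limma adjusted p = 0.990 and 0.911). The 95% interval of the CD14 value with 8 libraries ran from −0.032 to 2.06. In a test over the 3 groups at once, again none of the 10 passed (limma F test, 0.391% of probes with 9 libraries and 0.522% with 8), SLC11A1 being closest (adjusted p = 0.496 and 0.155).

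Ratios within a library need no scaling between libraries. CD163 to CD68, MRC1 to CD68, CD14 to CD68 and CD68 to PTPRC, the leukocyte antigen CD45, were compared between each pair of groups, 12 tests in all. None passed, and neither 3 samples against 3 nor 2 against 3 can give an exact permutation p below 0.1. The log2 ratio of CD68 to PTPRC was −1.51 ± 0.26 (SD, n = 3) in late 3KO.7TG grafts and −1.99 ± 0.20 in early 3KO.7TG grafts, without overlap (two-sided exact permutation p = 0.1, adjusted p = 0.8). The separation was a near tie, at −1.788 in late replicate 3 and −1.794 in early 3KO.7TG replicate 3. In 1KO.1TG grafts the same ratio was −1.53 ± 0.87 with the low-yield library and −1.03 ± 0.21 (n = 2) without it, the latter above both 3KO.7TG groups without overlap (two-sided exact permutation p = 0.1 and 0.2, adjusted p = 0.48 for both). The early 3KO.7TG libraries thus had the lowest ratios of CD68 to PTPRC of the 8, replicate 3 only by that near tie. MRC1 to PTPRC, not tested, had mean log2 ratios of −0.92 in 1KO.1TG grafts without the low-yield library, −0.90 in early and −0.70 in late 3KO.7TG grafts. The log2 ratio of MRC1 to CD68 ran the other way from that of CD68 to PTPRC, and is not independent of it, since both hold CD68. Without the low-yield library MRC1 to CD68 was 0.11 ± 0.08 (n = 2) in 1KO.1TG grafts, below 1.09 ± 0.71 in early 3KO.7TG grafts and 0.81 ± 0.27 in late 3KO.7TG grafts, again without overlap (two-sided exact permutation p = 0.2 for each, adjusted p = 0.48). CD163 to CD68 and CD14 to CD68 differed between groups by less than the larger of the SDs compared.

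Set against PTPRC, CD84 hardly varied. Its log2 ratio to PTPRC lay between −2.16 and −1.76 in the 8 libraries, with an SD of 0.135 against a median SD of 0.753 over all probes. SLC11A1 was at the other end of the 10, with an SD of 1.27 and a range from −6.59 to −2.73. MS4A7 stood apart in another way. Its log2 ratio to PTPRC was −1.09 and −1.08 in 1KO.1TG grafts and −2.12 in the low-yield library, and it was between −0.96 and 0.24 in the 6 libraries of the 3KO.7TG line. All 1KO.1TG libraries lay below all 3KO.7TG libraries for 1 of 10 genes, this one, and for 2.61% of probes. The MS4A7 value of the low-yield library rests on 16 counts, at background. With 8 libraries CD84 joined MS4A7 (2 of 10 against 8.74%). SLC11A1 had the opposite order, as did 2.87% of probes. In the low-yield library that rests on 4 counts and a near tie, at −3.990 against −3.993 in late 3KO.7TG replicate 2. With 8 libraries CD68 joined SLC11A1 on the higher side (2 of 10 against 4.95%). Apart from that of CD68, tested above, the ratios to PTPRC were examined after the values had been seen and were not tested.

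The balance of host and graft RNA was gauged from the panel's own reference probes. GUSB, SDHA, UBB and STK11IP each had 1 probe marked macaque and 1 marked pig, and the log2 ratios of macaque to pig counts, averaged over the 4, served as a species index. The specificity of these probes for their species was not examined. The index was −2.16 and −0.56 in 1KO.1TG grafts, −3.62, −3.11 and −1.34 in early 3KO.7TG grafts and −2.91, −1.45 and −1.62 in late 3KO.7TG grafts, so that each 3KO.7TG group spanned a wider range than the differences between group means. Libraries with a higher index tended to have higher levels of the 10 genes. Over the 8 libraries Pearson r with the index was above 0 for all 10, from 0.33 for MS4A7 to 0.93 for MS4A4A, with a median of 0.74 against 0.057 over all probes.

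For 3 of the 10 genes the relation passed after adjustment over all 767 probes, against 17.2% of probes in either direction and 8.21% in this direction. MS4A4A had r = 0.93 (rho = 0.88, exact permutation p = 0.002 and 0.007, adjusted p = 0.027 and 0.076). CD84 had r = 0.90 (rho = 0.83, exact permutation p = 0.004 and 0.015, adjusted p = 0.039 and 0.091), and CD68 had r = 0.88 (rho = 0.83, exact permutation p = 0.002 and 0.015, adjusted p = 0.031 and 0.091). By rank none of the 10 passed, where 4.95% of probes did. When the 2 libraries with the most extreme index were left out, r was 0.91, 0.84 and 0.68 for MS4A4A, CD84 and CD68, and with group means removed it was 0.98, 0.97 and 0.90. With all 9 libraries none of the 10 passed (1.43% of probes in either direction, 0.391% with r above 0). With median scaling MS4A4A alone did (18.4% of probes in either direction, 2.74% with r above 0). The index itself ran with library size, at r = 0.83 with the log2 effective size. With size removed r was 0.73, 0.72 and 0.74 for these 3 genes. It was 0.51 for CD14 and SLC11A1, 0.48 for LST1, 0.15 for MS4A6A, 0.069 for CD163, −0.24 for MRC1 and −0.31 for MS4A7, so that 8 of the 10 stayed above 0.

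**Figure D3:**
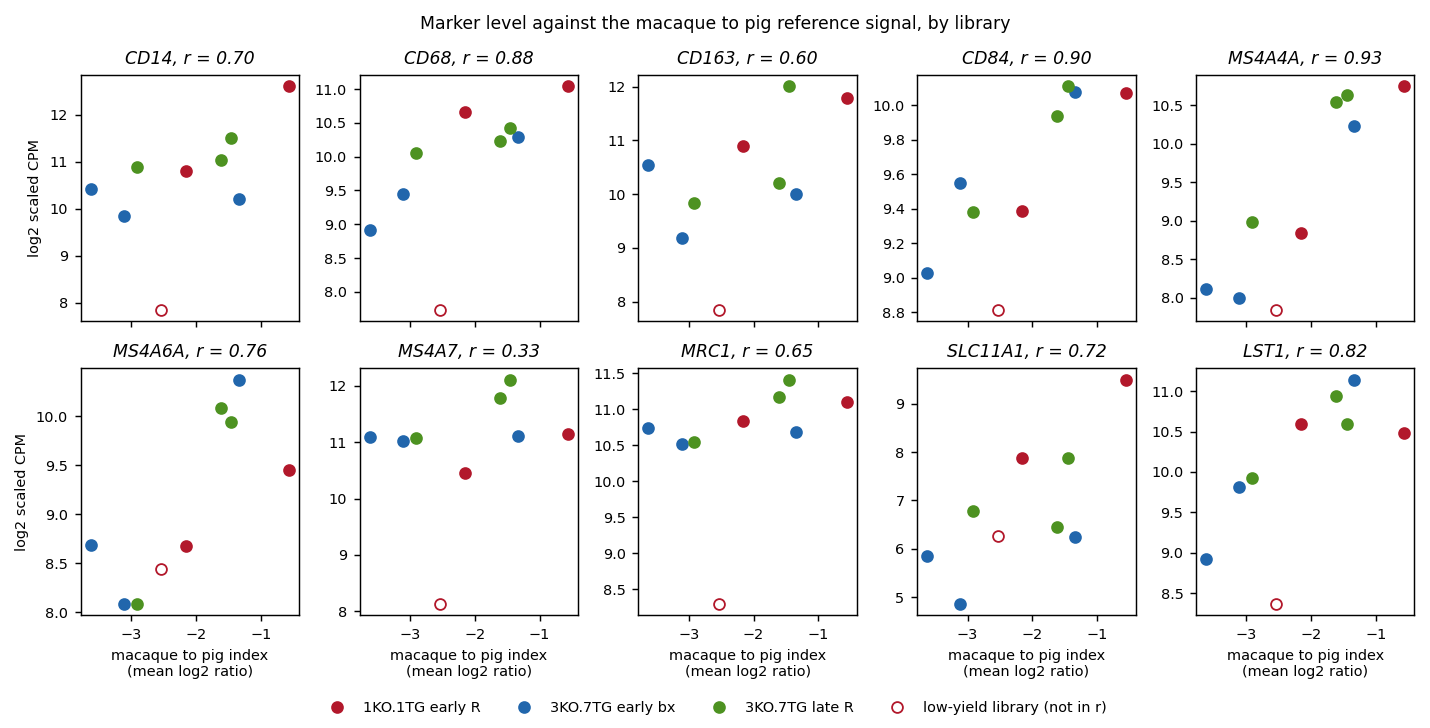
Level of each of the 10 genes, as log2 CPM, against the species index, the log2 ratio of macaque to pig counts averaged over 4 reference genes. Points are libraries coloured by group, with the low-yield library open. MS4A4A, CD84 and CD68 follow the index most closely, with r of 0.93, 0.90 and 0.88 over the 8 other libraries.

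The index also moved beside the group comparisons. Its mean was 0.70 higher in late 3KO.7TG grafts than in early 3KO.7TG grafts, and 1.33 higher in 1KO.1TG grafts than in early 3KO.7TG grafts without the low-yield library (0.94 with it). None of these differences went beyond the spread (two-sided exact permutation p = 0.5, 0.3 and 0.4). The 8 kidney parenchyma markers measured had summed levels of 879 and 9436 CPM in 1KO.1TG grafts, 7751 to 50487 in early 3KO.7TG grafts and 4237 to 13733 in late 3KO.7TG grafts, with 2 to 5 of the 8 at or below 17 counts. They did not move as one, since 4 of 8 had a log2 fold change above 0 between the early groups with all 9 libraries and 3 of 8 with 8, and 5 and 4 of 8 against late 3KO.7TG grafts. For late against early 3KO.7TG grafts 0 of 8 lay above 0 in either fit. PTPRC measured 2980 and 4801 CPM, 2206 to 4334 and 2589 to 4149 in the same order, so leukocyte signal as a whole overlapped between the groups. The part of host share in the differences of the 10 genes between groups was not tested.

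The 10 genes varied together across libraries, though to unequal degrees. Over the 8 libraries all 45 pairs had a Pearson r above 0, with a median of 0.61 against a median of −0.003 over all pairs of probes. These values share libraries, scaling and the relation to size, and are given as a description. The closest pair was CD14 with SLC11A1 (r = 0.92), followed by CD84 with MS4A4A (0.90), CD163 with SLC11A1 (0.85) and MS4A4A with MS4A6A (0.85). The lowest values were those of MS4A7 with CD68 and SLC11A1 (r = 0.056 and 0.058). With group means removed these were 0.38 and 0.65 and the median over the 45 pairs was 0.65, while the lowest were those of LST1 with CD14 and CD163 (−0.053 and −0.023). Which gene was least tied to the rest thus depended on the measure.

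**Figure D4:**
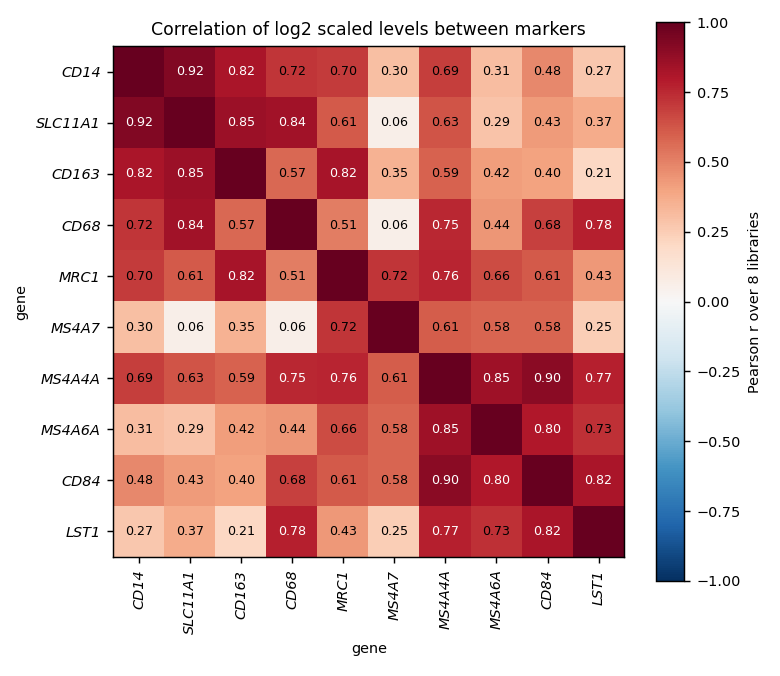
Pearson r between the log2 scaled levels of each pair of the 10 genes over 8 libraries, the low-yield one left out, with colour from −1 to 1. All 45 values lie above 0, and the lowest, 0.056 and 0.058, are those of MS4A7 with CD68 and with SLC11A1.

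The mean of the 10 genes, each first standardised over the 8 libraries, was highest in late 3KO.7TG replicate 2 (0.99) and 1KO.1TG replicate 2 (0.95). It was lowest in early 3KO.7TG replicates 2 and 1 (−1.02 and −0.91). Of the other probes, those most like this mean were TRIB1, a pseudokinase (r = 0.96, rho = 0.98), MYD88, the adaptor of Toll-like receptors (0.96 and 0.95), FCGR1A, the high-affinity IgG receptor of monocytes (0.96 and 0.93), RNF149, a ubiquitin ligase (0.96 and 0.93), and ATF3, a stress-induced transcription factor (0.95 and 0.93), all over 8 libraries. FCGR1A for example measured 1309 and 3139 CPM in 1KO.1TG grafts, 1061, 1138 and 1605 in early 3KO.7TG grafts and 1385, 2710 and 2183 in late 3KO.7TG grafts. Among the 10 genes MS4A4A was closest to the mean (r = 0.96, rho = 0.95). MS4A7 was farthest from it by Pearson r (0.57, with rho = 0.81), and LST1 by rank (r = 0.72, rho = 0.60).

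Other genes of monocytes and macrophages on the panel, 31 in number and including complement C1q, Fc receptors, integrins and cathepsins, had a median log2 fold change of 0.25 between the early groups with all 9 libraries and 1.07 with 8, with 18 and 27 of 31 above 0. With all 9 libraries the smallest p-values belonged to FCGR2B, the inhibitory IgG receptor (2.29 ± 0.59), and TREM1, which amplifies inflammatory signals in myeloid cells (2.85 ± 0.81, limma adjusted p = 0.170 and 0.181). TREM1 was at 3.05 ± 0.86 with 8 (limma adjusted p = 0.107). Only without the low-yield library did any pass, 2 of 31 against 1.83% of probes in either direction, both higher in 1KO.1TG grafts. They were FCGR2B (2.76 ± 0.52, limma adjusted p = 0.032), and LILRB2, an inhibitory receptor for MHC class I (2.12 ± 0.41, limma adjusted p = 0.032, and 1.73 ± 0.49 with all 9 libraries, limma adjusted p = 0.181). FCGR2B measured 530 and 1102 CPM in 1KO.1TG grafts and between 69.7 and 289 in the 6 libraries of the 3KO.7TG line, and LILRB2 578 and 635 against 120 to 339. Against late 3KO.7TG grafts none of the 31 passed in either fit, with medians of −0.09 and 0.34. For late 3KO.7TG grafts against early 3KO.7TG grafts 29 of 31 lay above 0 with all 9 libraries and 31 of 31 with 8, with medians of 0.60 and 0.61, and none passed. In that comparison CTSL, the lysosomal protease cathepsin L, was at 1.96 ± 1.02 and LILRB2 at 0.85 ± 0.45 with all 9 libraries (limma adjusted p = 0.990 for both), and at 1.95 ± 0.74 and 0.87 ± 0.37 with 8 (limma adjusted p = 0.911 for both).

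Genes that recruit or maintain macrophages, 9 measured, gave no call in any comparison. CCL2, the main monocyte chemokine, had log2 fold changes of 1.47 ± 0.68 between the early groups and 1.67 ± 0.67 for late against early 3KO.7TG grafts with all 9 libraries (limma adjusted p = 0.377 and 0.990), and 1.99 ± 0.64 and 1.73 ± 0.58 with 8 (limma adjusted p = 0.146 and 0.911). Among 10 genes of alternative activation none passed, ARG1, which breaks down arginine, being at 1.86 ± 0.62 and IL1R2, a decoy receptor for interleukin-1, at 3.16 ± 1.17 between the early groups with all 9 libraries (limma adjusted p = 0.245 and 0.299). With 8 they were at 1.82 ± 0.52 and 3.12 ± 1.03 (limma adjusted p = 0.109 and 0.160). Among 19 genes of classical activation none passed either. PTGS2, the inducible cyclooxygenase, was at 2.64 ± 0.99 and 2.72 ± 0.93 in that comparison with 9 and 8 libraries (limma adjusted p = 0.299 and 0.172). The 6 genes of lysosomes and antigen handling had a median of −0.31 with all 9 libraries and 0.83 with 8, with CTSL at 2.00 ± 1.01 and 3.51 ± 0.84 (limma adjusted p = 0.434 and 0.062). CD47, a surface signal that restrains phagocytosis by macrophages, measured 793 and 736 CPM in 1KO.1TG grafts and 16583 to 40056 CPM in the 6 libraries of the 3KO.7TG line, and passed against both 3KO.7TG groups (−5.41 ± 0.61 and −5.40 ± 0.61 with all 9 libraries, limma adjusted p = 2.82e-04 and 3.53e-04). With 8 these were −4.91 ± 0.46 and −4.93 ± 0.46 (limma adjusted p = 4.22e-04 and 4.03e-04).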

How the data were processed

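The authors deposited 1 table of log2 values for 767 probes in 9 samples, with no description of scaling. In it, 2 to the power of each deposited log2 value was a whole number for 100% of values (relative tolerance 1e-04), so these were taken as log2 of unscaled counts. Each library size was scaled by a trimmed-mean factor, with trims of 0.3 on log ratios and 0.05 on mean levels. Counts were transformed by voom (offset 0.5) and fitted with lmFit and eBayes in limma 3.58.1 (R 4.3.3) with a mean for each of 3 groups. Two-sided p-values were adjusted over all 767 probes (Benjamini-Hochberg), with a threshold of 0.05. The fit was also run on simulated counts as a self-test, of which no outcome is used here. A quasi-likelihood count model was not run. SE is moderated, and CPM is given without the offset. Ratios and correlations used exact permutation tests in SciPy 1.17.1.

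The 10 genes, the other lists, the alternatives and the rule for further named genes were chosen with earlier results of these data known. That rule took the 5 probes most like the mean of the 10 genes, the 2 genes of smallest p of each list described, and CD47; not every gene it picks is printed. The labels do not say whether samples of equal replicate number share an animal, and samples were fitted without pairing. Deviations from group means correlated at −0.45 to 0.48 between samples of equal number and −0.53 to 0.47 between others, which cannot settle it. Alternatives changed the scaling, background, offset, low-count filter, voom weights, replicate block, samples fitted and left-out library. Fits without the low-yield library combined with a second change, and the ratios to PTPRC, were added after the data were seen. The number of samples limits precision, and counts near 17 lie at background.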

Additional observations from a re-analysis of the deposited data

How the results depend on the processing

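With all 9 libraries the count of the 10 genes called stayed at 0 in each of the 3 comparisons under every alternative run. The median of the 10 genes for 1KO.1TG against late 3KO.7TG grafts was −2.06 without any scaling, where all probes had a median of −1.40. Between the early groups without the low-yield library, scaling on pig reference probes gave a median of 1.65 where all probes had 0.79, so the 10 genes stood 0.86 above all probes, as under trimmed-mean scaling. Other shifts of the all-probe median reached −0.77 without scaling and 0.82 with pig reference probes in the 9-library fit of the early groups. The count of genes called between the early groups without the low-yield library, otherwise 0, was 2 when 1KO.1TG replicate 1 was also left out, 2 without early 3KO.7TG replicate 3 and 1 without late 3KO.7TG replicate 2.

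Single genes changed sign, some from well off 0. Between the early groups with 9 libraries, median scaling gave CD68 −0.088 and CD163 −0.36. Housekeeping scaling gave CD14 1.02 and LST1 0.25. Pig reference scaling gave CD14 0.86, CD84 0.61, MS4A6A 0.58, MRC1 0.095 and LST1 0.53, and macaque reference scaling gave CD14 0.31. Subtracting the viral probe mean gave CD14 0.43, CD84 0.072 and LST1 0.13. No scaling gave CD68 −0.67, CD163 −0.67 and MS4A4A −0.57. The low-count filter gave CD14 0.25 and LST1 0.10, no voom weights CD14 0.27, and fitting only the groups compared CD163 −0.16 and MS4A6A 0.025. Against late 3KO.7TG grafts, housekeeping scaling gave CD14 0.011, CD68 0.16 and CD163 0.13, macaque reference scaling CD68 0.018, and no scaling SLC11A1 −0.66. For late against early 3KO.7TG grafts macaque reference scaling gave CD84 −0.025. None of these values passed, and the cause was not tested.

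Leaving out each library in turn, values between the early groups ran from −0.72 to 1.63 for CD14, −0.15 to 1.37 for CD68, −0.45 to 1.50 for CD163, −0.38 to 0.25 for CD84, −0.12 to 1.33 for MS4A4A, −0.47 to 0.62 for MS4A6A, −1.10 to 0.39 for MRC1 and −0.56 to 0.65 for LST1. Against late 3KO.7TG grafts they ran from −1.71 to 0.62 for CD14, −0.86 to 0.66 for CD68, −1.21 to 0.71 for CD163, −1.04 to 0.039 for MS4A6A and −1.03 to 0.10 for LST1. For late against early 3KO.7TG grafts MS4A6A ran from −0.17 to 1.09. With the low-yield library and 1KO.1TG replicate 2 both left out, CD14 was −0.29 against late 3KO.7TG grafts. Against that group the log2 ratio of CD163 to CD68 was 0.037 and that of CD68 to PTPRC 0.48 without the low-yield library.

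The fit with the replicate block called 0 of 10 genes in every comparison, with medians of 0.066, −0.61 and 0.64 (1.24, 0.39 and 0.66 without the low-yield library), and turned CD14 to 0.17 between the early groups. Since the labels do not say whether equal numbers pair samples, it is given only as an alternative. Counts at or near 17 limit what the low-yield library can show for all 10 genes, and what early 3KO.7TG replicate 2 can show for SLC11A1.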
